A study of Mus musculus with 2 samples.

Results

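The cathepsin proteases described here are 9 genes, Ctsa, Ctsb, Ctsc, Ctsd, Ctsh, Ctsk, Ctsl, Ctss and Ctsz, found by symbol among the 32285 genes listed in both count matrices. Cathepsins are proteases of the lysosome, the acidic compartment in which cells take apart what they have engulfed and their own worn parts. Most are cysteine proteases related to papain (cathepsins B, C, H, K, L, S and Z), cathepsin D is an aspartic protease, and cathepsin A is a serine carboxypeptidase that also shields lysosomal beta-galactosidase and neuraminidase from breakdown. Each is made as an inactive precursor that is trimmed in the acidic lysosome, and cystatins and stefins inhibit the cysteine members. Microglia, the resident macrophages of the brain, are rich in lysosomes and known for strong expression of several of these genes.

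The 2 libraries held cells of the central nervous system of CD45.1 mice that had received donor blood stem and progenitor cells after busulfan, 4 doses of 25 mg/kg, a drug that clears the recipient marrow. The library labelled Cx3cr1-/+ is called Het and the library labelled Cx3cr1+/+ is called WT, each with 1 replicate. The labels give both the same protocol, in which GFP+ and GFP- cells, taken by sorting out of the lineage-negative pool of Cx3cr1-/+ mice, were the donor cells, so the donor of the WT library is not settled by them. Sex, age, time after transplantation and number of animals are not given in the sources used here.

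The Het library held 17828344 unique molecular identifiers (UMIs, each standing for 1 captured transcript) in 1837 barcodes, of which 1489 were kept as cells, and the WT library held 22062823 UMIs in 2359 barcodes, of which 1949 were kept. The cathepsins made up 0.865% of the UMIs of kept cells in the Het library and 0.723% in the WT library. The cells were labelled as microglia-like, yet 20 clusters were found, and microglia markers defined 207 Het and 303 WT cells; all 14 microglia markers were higher in both clusters of that class. The other large classes were monocyte-like (300 Het and 638 WT cells), neutrophil-like (307 Het and 443 WT cells) and dendritic cell-like (145 Het and 190 WT cells). A further cluster, rich in C1q and with Gpnmb, Spp1 and Apoe as its leading genes, was named by no marker list; it held 154 Het and 50 WT cells. The libraries stood apart in 2 ways that touch the results. First, 339 barcodes were listed in both, and 255 of the Het and 198 of the WT cells carried such a barcode. Second, cells with Xist and no Y-linked transcript made up most of the Het Gpnmb-Spp1-Apoe cluster (146, against 0 with Y-linked transcripts only). The WT cells there held 8 with Xist and 20 with Y-linked transcripts. Monocyte-like cells held 252 with Xist and 4 with Y-linked transcripts in the Het library, against 13 and 371 in the WT library. The same counts were 99 and 6 against 14 and 94 in dendritic cell-like, and 65 and 5 against 13 and 46 in proliferating-like cells. In these classes, too, sex mark and library cannot be told apart. Neutrophil-like cells held 217 and 7 against 43 and 190, and microglia-like cells 98 and 0 against 87 and 13. Cx3cr1 itself, read from its 3′ end, had 632 CPM (counts per 1000000 counts) in kept Het cells and 727 CPM in kept WT cells. In the microglia-like class it had 2222 CPM in the Het library and 2178 CPM in the WT library. The sources used here do not say which stretch of the gene the altered allele lacks, so these values do not check the labels.

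Levels are the UMIs of a gene summed over the cells of a class and library, as CPM of all UMIs of those cells. They are compared for 1 gene across classes and not between genes. With 1 library per genotype there is no replicate and no test. The 95% intervals (exact Poisson for levels, exact conditional binomial for ratios, exact binomial for shares) cover counting error only.

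Among the classes of at least 50 cells, 8 of the 9 genes were highest in the Gpnmb-Spp1-Apoe cluster or the microglia-like class in both libraries. Ctsk was the exception. For Ctsc that rank was not resolved, since its intervals overlapped those of other classes. Ctsd, the aspartic endopeptidase of the lysosome, had 9062 CPM (interval 8905 to 9221) in the Gpnmb-Spp1-Apoe cluster of the Het library and 5394 CPM (5148 to 5650) in that of the WT library. In the microglia-like class Ctsd had 6500.3 CPM in the Het library and 5576 CPM in the WT library. The next class down was the neutrophil-like, with 1702 CPM in the Het library and 1476 CPM in the WT library. Monocyte-like cells had 932 CPM of Ctsd in the Het library and 612 CPM in the WT library, and dendritic cell-like cells 699.5 CPM in the Het library and 440.2 CPM in the WT library. In the WT library the intervals of the microglia-like class and of that cluster overlapped, so their order was not resolved there.

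Ctsb, a cysteine protease that cuts both inside proteins and at their carboxyl end, stood highest in the Gpnmb-Spp1-Apoe cluster in both libraries, with 4674 CPM in the Het library and 3086 CPM in the WT library. Among the classes of at least 50 cells, the microglia-like class followed with 2416 CPM in the Het library and 1875 CPM in the WT library. Unlike Ctsd, Ctsb was next highest in monocyte-like cells, at 1334 CPM in the Het library and 1279 CPM in the WT library. Natural killer (NK) cell-like cells had the lowest level, 89.1 CPM in the Het library and 111 CPM in the WT library.

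Ctsl, an endopeptidase that in some tissues also trims the invariant chain of MHC class II, was the gene of the set that stood highest in the microglia-like class in both libraries with its interval clear of every other class. It had 1253 CPM there in the Het library and 1292 CPM in the WT library, against 643 CPM in the Het library and 459 CPM in the WT library in the Gpnmb-Spp1-Apoe cluster. Endothelial-like cells (449.98 CPM in the Het library, 598 CPM in the WT library) and choroid plexus-like cells (446 CPM in the Het library, 499 CPM in the WT library) were higher than monocyte-like cells (169.9 CPM in the Het library, 169.2 CPM in the WT library). After each cell was thinned to 2000 UMIs, Ctsl was seen in 80.4% of 163 Het and 88.7% of 222 WT microglia-like cells (86.5% of 207 Het and 90.1% of 303 WT cells unthinned). The NK cell-like class gives the background, with shares of 7.69% of 26 Het cells and 3.92% of 51 WT cells (9.09% of 33 Het and 11.9% of 59 WT cells unthinned). The median depth was 3990.0 UMIs in Het and 3675 UMIs in WT microglia-like cells, and 7349 UMIs in Het and 4811 UMIs in WT NK cell-like cells.

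Ctss, the cysteine protease that trims the invariant chain in antigen-presenting cells and keeps activity at neutral pH, had 6379 CPM in the Gpnmb-Spp1-Apoe cluster of the Het library and 5583 CPM in that of the WT library. The microglia-like class had 4929 CPM in the Het library and 5344 CPM in the WT library. Dendritic cell-like cells came next, at 2652 CPM in the Het library and 2290.45 CPM in the WT library, and monocyte-like cells had 2068 CPM in the Het library and 1960.1 CPM in the WT library. Within the microglia-like class its level differed between the clusters more than between the libraries. The Klk8-Sparc-Ltc4s cluster, of shallow cells with a median of 2690.0 UMIs in the Het library and 2517 UMIs in the WT library, had 6565 CPM of Ctss in the Het library and 7193 CPM in the WT library. The Adamts1-P2ry12-Nav3 cluster, with a median of 9325 UMIs in the Het library and 8735 UMIs in the WT library, had 4301 CPM in the Het library and 4543 CPM in the WT library.

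The remaining members are mostly exopeptidases, which shorten proteins from an end. Ctsz, a carboxypeptidase, had 1639 CPM in the Gpnmb-Spp1-Apoe cluster of the Het library and 1261 CPM in that of the WT library, close to the microglia-like class with 1579 CPM in the Het library and 1482 CPM in the WT library. Ctsh, mainly an aminopeptidase, had 748 CPM in the Gpnmb-Spp1-Apoe cluster of the Het library and 750.5 CPM in that of the WT library. NK cell-like cells had 2 UMIs of Ctsh (5.94 CPM) in the Het library and 4 UMIs (11.7 CPM) in the WT library. Ctsa had 756 CPM in the Gpnmb-Spp1-Apoe cluster of the Het library and 531 CPM in that of the WT library, and 615 CPM in microglia-like cells of the Het library and 594 CPM in those of the WT library.

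Ctsc encodes dipeptidyl peptidase I, which activates the serine proteases of neutrophil and lymphocyte granules. The Gpnmb-Spp1-Apoe cluster had 717 CPM in the Het library and 919 CPM in the WT library. Dendritic cell-like cells had 699.5 CPM in the Het library and 685 CPM in the WT library, proliferating-like cells 659 CPM in the Het library and 809 CPM in the WT library, and monocyte-like cells 649.7 CPM in the Het library and 619 CPM in the WT library. Microglia-like cells were lower than these, at 535 CPM in the Het library and 424 CPM in the WT library. The interval of the Gpnmb-Spp1-Apoe cluster overlapped that of dendritic cell-like cells in the Het library (674 to 763 against 657 to 744 CPM). In the WT library it overlapped that of proliferating-like cells (819 to 1027 against 768 to 852 CPM). The highest class was therefore not resolved in either library. Among monocyte-like cells, the Vcan-Fn1-Ccr2 cluster, with genes of the classical type, had 817 CPM in Het and 835 CPM in WT cells. In the Het library its interval (768 to 869 CPM) lay above that of the Gpnmb-Spp1-Apoe cluster. In the WT library the intervals of these clusters overlapped. The Cd300e-Fabp4-Ace cluster, with genes of the patrolling type, had 495 CPM in the Het library and 469 CPM in the WT library.

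**Figure D1:**
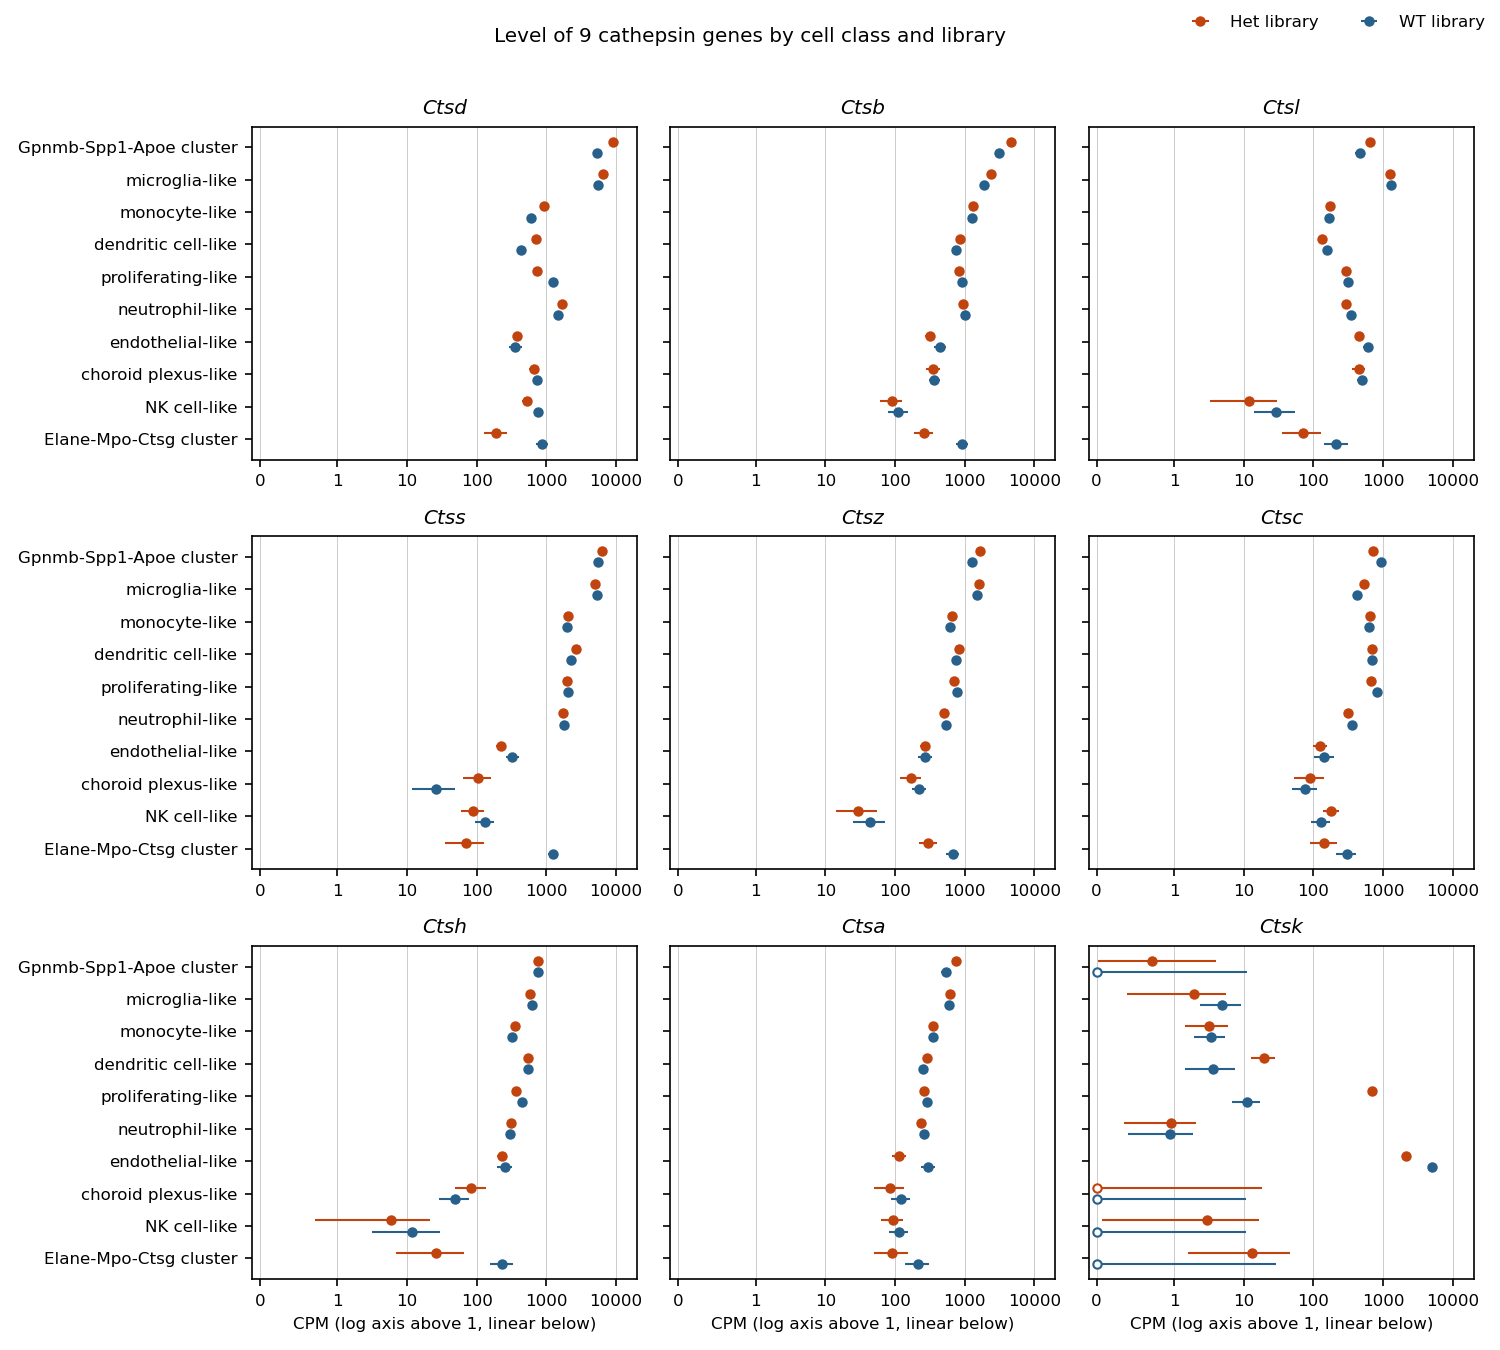
Level of each cathepsin gene in CPM (log axis above 1, linear below) in 10 classes or clusters, 1 panel per gene, with the Het library above the WT library and 95% Poisson intervals as bars. Open points mark 0 UMIs. By level, 8 genes are highest in the upper 2 classes, for Ctsc with intervals that overlap those of other classes. Ctsk stands at 2122 CPM in Het and 5008 CPM in WT endothelial-like cells.

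The spread over single cells was wide within each class. Ctsd per 10000 UMIs of a cell had a median of 65.7 in Het and 53.3 in WT cells of the Gpnmb-Spp1-Apoe cluster, with the outer deciles at 27.2 and 134 in the Het library and 15.9 and 107 in the WT library. Microglia-like cells had medians of 51.3 in the Het library and 49.2 in the WT library. The medians of Ctsb in microglia-like cells were 16.2 in the Het library and 16.0 in the WT library, so the typical cell differed less between the libraries than the summed levels did. Ctss medians in that class were 50.4 in the Het library and 57.9 in the WT library. Ctsl was seen at a median of 11.3 in the Het library and 11.9 in the WT library in microglia-like cells, and at 4.82 in the Het library and 4.00 in the WT library in the Gpnmb-Spp1-Apoe cluster.

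**Figure D2:**
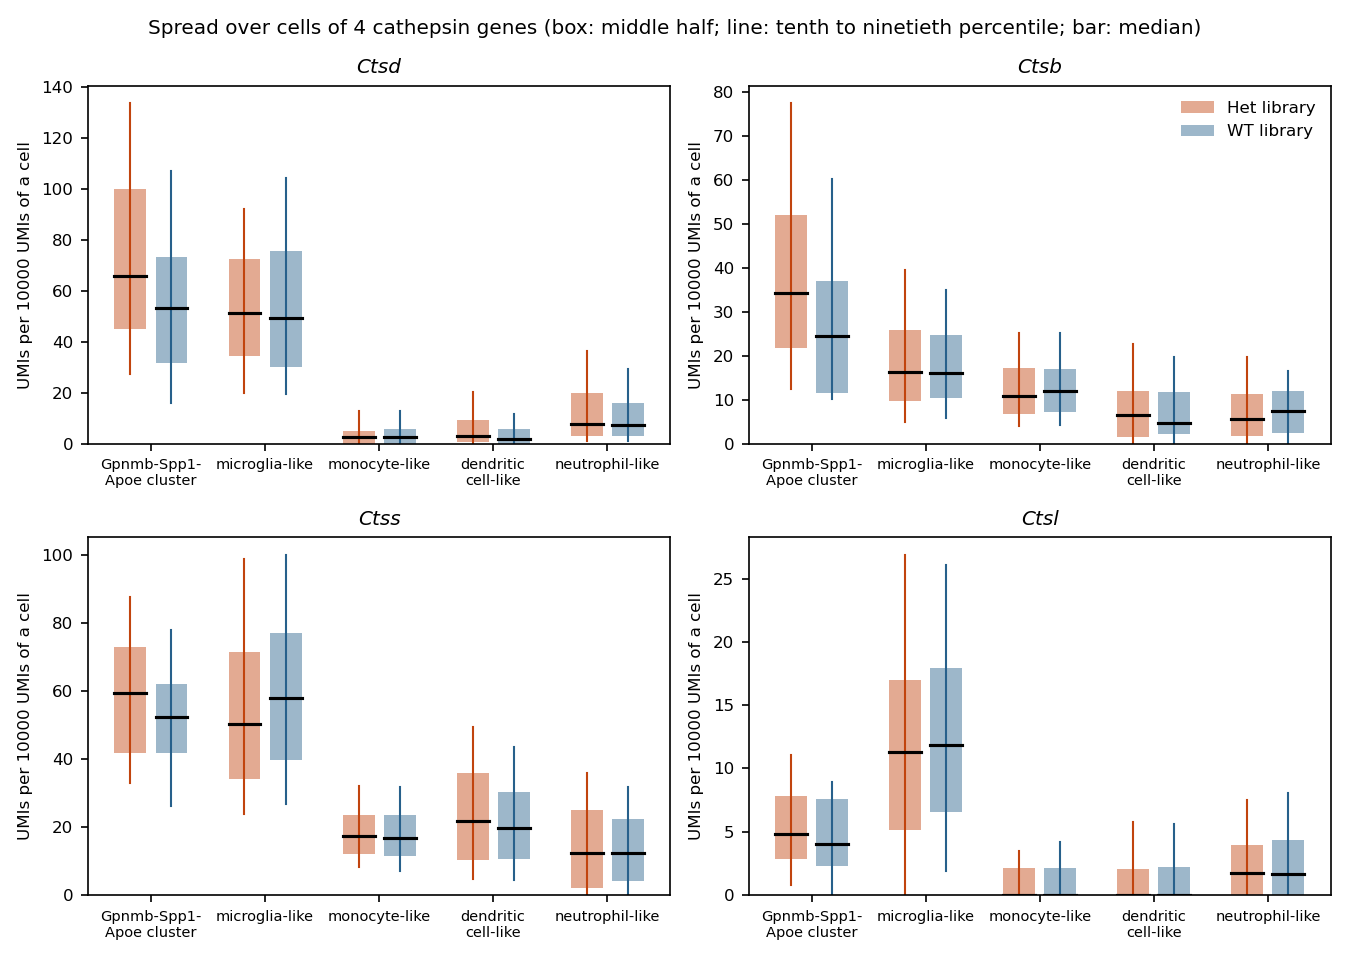
Ctsd, Ctsb, Ctss and Ctsl UMIs per 10000 UMIs of a cell in 5 classes, Het left of WT; boxes run from the lower to the upper quartile, thin lines reach the outer deciles and black bars are medians. Ctsd medians are 65.7 in Het and 53.3 in WT cells of the Gpnmb-Spp1-Apoe cluster and 2.62 in Het and 2.46 in WT monocyte-like cells.

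Outside the macrophages, part of the cathepsin signal moved with C1q. C1qa, C1qb and C1qc, complement genes typical of tissue macrophages and microglia, summed to 5637 CPM in neutrophil-like cells of the Het library and 5222 CPM in those of the WT library. Of these cells, 213 Het and 294 WT barcodes had at least 5 UMIs of C1q and at least 5 of S100a8 and S100a9 (neutrophil genes). In those barcodes Ctsd had 1947 CPM in the Het library and 1726 CPM in the WT library. In the other 94 Het and 149 WT neutrophil-like barcodes Ctsd had 329 CPM in the Het library and 305 CPM in the WT library, and C1q stood at 156 CPM in the Het library and 159 CPM in the WT library. Ctss showed the same split, with 2009 CPM in the Het library and 2028 CPM in the WT library in barcodes with C1q, against 332 CPM in the Het library and 536 CPM in the WT library in the others. The split is made on a count of UMIs, so by its making it favours deeper barcodes and leaves little C1q in the others. Barcodes with C1q had a median of 22221 UMIs in the Het library and 17857 UMIs in the WT library, against 6441 UMIs in the Het library and 6637 UMIs in the WT library. For every 100 UMIs of C1q, the neutrophil-like class had 30.2 UMIs of Ctsd in the Het library and 28.3 in the WT library, and the microglia-like class 31.8 in the Het library and 26.2 in the WT library. Other members differed more between the classes by this measure: Ctsb had 16.6 in the Het library and 19.0 in the WT library in neutrophil-like cells, against 11.8 in the Het library and 8.79 in the WT library in microglia-like cells. Ctsc had 5.50 in the Het library and 6.88 in the WT library in neutrophil-like cells, against 2.61 in the Het library and 1.99 in the WT library in microglia-like cells. Scrublet, a doublet caller, called 0 doublets in either library, so no barcode was removed as one. Some barcodes carried both Xist and Y-linked transcripts. In the Camp-Fcnb-Ngp cluster of neutrophil-like cells they were 3 of 198 Het and 92 of 284 WT barcodes. The Adamts1-P2ry12-Nav3 cluster had 0 of 87 Het and 29 of 115 WT, and the Cd300e-Fabp4-Ace cluster 0 of 188 Het and 7 of 440 WT. Whether the neutrophil-like barcodes with C1q hold more than 1 cell was not tested.

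Monocyte-like cells showed the same for Ctsd and not for Ctsc. The 64 Het and 113 WT monocyte-like barcodes with both kinds of UMIs had 2137 CPM of Ctsd in the Het library and 1146 CPM in the WT library, and the other 236 Het and 525 WT barcodes 283 CPM in the Het library and 372 CPM in the WT library. Ctsc had 619 CPM in the Het library and 601 CPM in the WT library in the barcodes with both kinds, and 666 CPM in the Het library and 627 CPM in the WT library in the others. The small Tgm3-Ace-Apoe cluster of this class, 18 Het and 27 WT cells with C1q at 9571 CPM in the Het library and 8973 CPM in the WT library, had 3794 CPM of Ctsd in the Het library and 2541 CPM in the WT library. The Cd300e-Fabp4-Ace cluster, with C1q at 915 CPM in the Het library and 917 CPM in the WT library, had 359 CPM of Ctsd in the Het library and 389 CPM in the WT library.

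**Figure D3:**
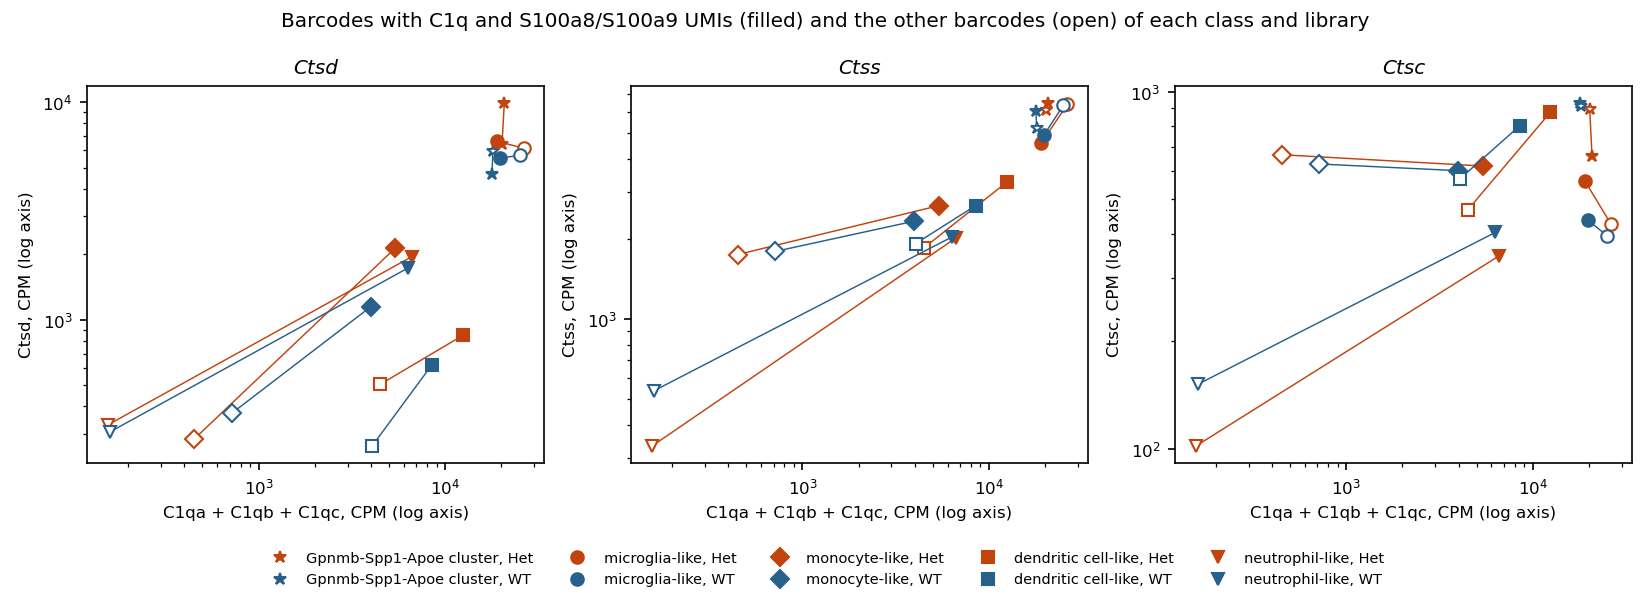
Ctsd, Ctss and Ctsc against the summed C1q genes, both in CPM on log axes, for barcodes with at least 5 UMIs of C1q and of S100a8 and S100a9 (filled) and the other barcodes (open) of 5 classes, with a line joining the 2 kinds of 1 class and library. In neutrophil-like cells Ctsd stands at 1947 CPM (Het) and 1726 CPM (WT) in filled and at 329 CPM (Het) and 305 CPM (WT) in open points.

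Between the libraries, a gene is counted as past the threshold when its CPM differed by more than 1.5-fold in a class, with at least 50 UMIs over both libraries and a mean of at least 20 CPM. The ratios are Het over WT on the log2 scale. In the microglia-like class 0 of the 8 members that could be judged were past it in either direction, while 2.99% of 5710 genes were higher and 1.07% lower in the Het library by the same rule. The highest ratio was that of Ctsb, 0.37 (interval 0.30 to 0.43), from 3790 UMIs in the Het library and 3806 UMIs in the WT library. Ctsc stood at 0.33 (0.20 to 0.47), Ctsd at 0.22 (0.18 to 0.26) and Ctss at -0.12 (-0.16 to -0.07). The other 4 members lay between -0.06 (Ctsh) and 0.09 (Ctsz). The median over the 8 members was 0.07, beside 0.03 over all genes judged. Across the alternatives the ratio ran from 0.068 to 0.41 for Ctsb and from 0.11 to 0.44 for Ctsc. It ran from -0.016 to 0.30 for Ctsd and from -0.21 to 0.011 for Ctss. The lowest value of Ctsb left out the barcodes with C1q and S100a8 or S100a9 UMIs, at 1919 CPM in Het and 1831 CPM in WT cells. The class splits into the Adamts1-P2ry12-Nav3 cluster, with 0 members past the threshold (4.33% of all genes judged were higher and 2.26% lower), and the Klk8-Sparc-Ltc4s cluster, also with 0 (3.58% higher and 5.03% lower). In the Adamts1-P2ry12-Nav3 cluster Ctsb stood at 0.46, with 2508 CPM in the Het library and 1818 CPM in the WT library. Without the barcodes with at least 5 UMIs each of C1q and of S100a8 and S100a9 the ratio was -0.84. That value is from 16 Het and 36 WT cells, with median depths of 4382.5 UMIs (Het) and 5873 UMIs (WT). The barcodes left out had medians of 11488 UMIs (Het) and 11230 UMIs (WT).

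In the Gpnmb-Spp1-Apoe cluster 2 of 8 members, Ctsd and Ctsb, were more than 1.5-fold higher in the Het library and 0 were lower, where 8.92% of 4127 genes were higher and 6.59% lower. The ratio of Ctsd was 0.75 (0.68 to 0.82), from 12712 UMIs in the Het library and 1797 UMIs in the WT library. That of Ctsb was 0.60 (0.50 to 0.69), from 6556 UMIs in the Het library and 1028 UMIs in the WT library. Ctsa (0.51), Ctsl (0.48), Ctsz (0.38) and Ctss (0.19) leaned the same way with intervals above 0, Ctsh did not differ beyond counting error (-0.01, -0.20 to 0.20), and Ctsc leaned the other way (-0.36, -0.54 to -0.17). The median over the members was 0.43, beside -0.01 over all genes judged. Other values of the cluster moved with the library. Gpnmb, its leading gene, had 890 CPM in the Het library and 189 CPM in the WT library. In 103 of 154 Het and 21 of 50 WT barcodes there were at least 5 UMIs each of C1q and of S100a8 and S100a9. Those barcodes had 20762 CPM of C1q in the Het library and 17834.5 CPM in the WT library. The others had 20172 CPM in the Het library and 18044 CPM in the WT library. Those barcodes were deeper, with medians of 8029 UMIs (Het) and 6569 UMIs (WT), against 5485 UMIs (Het) and 4583 UMIs (WT) in the others. Leaving them out therefore kept the shallower cells, at nearly the same C1q. Without those barcodes Ctsd had 6393 CPM in the Het library and 5957 CPM in the WT library (0.10) and Ctsb 3411 CPM in the Het library and 3765 CPM in the WT library (-0.14). With equal weight per cell neither gene was past the threshold (Ctsd 0.43, Ctsb 0.36). Cells marked by Xist in the Het library had 8950.1 CPM of Ctsd, and cells marked by Y-linked transcripts in the WT library 4335 CPM; sex mark and library cannot be told apart in this cluster.

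In the monocyte-like class 1 of 8 members, Ctsd, was past the threshold (0.61, 0.53 to 0.68), where 1.24% of 5257 genes were higher and 0.533% lower. The call was lost under several alternatives: without the barcodes with C1q and S100a8 or S100a9 UMIs the ratio was -0.39, with a stricter cell filter (at least 1000 genes and under 5% mitochondrial UMIs) it was -0.18, and without the barcodes listed in both libraries it was 0.27. It was 0.15 with equal weight per cell, 0.19 with thinning and 0.57 with TMM or median-of-ratios scaling. The medians of Ctsd per 10000 UMIs of a cell were 2.62 in the Het library and 2.46 in the WT library. The other 7 members lay between 0.01 (Ctsl) and 0.18 (Ctsh). In the Vcan-Fn1-Ccr2 cluster Ctsd was likewise the 1 member past the threshold (0.60), where 3.32% of genes were higher and 2.43% lower, with 821 CPM in the Het library and 542 CPM in the WT library. That ratio was -0.26 without the barcodes with C1q and S100a8 or S100a9 UMIs, -0.45 with the stricter filter and 0.57 with TMM or median-of-ratios scaling, which is under the threshold. In the Cd300e-Fabp4-Ace cluster 0 members were past it, where 1.67% of genes were higher and 1.53% lower.

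In the dendritic cell-like class Ctsd was again the 1 member past the threshold (0.67, 0.54 to 0.80), where 5.09% of 5088 genes were higher and 2.79% lower. It had 1020 UMIs in the Het library and 857 UMIs in the WT library, and medians per 10000 UMIs of 2.84 in the Het library and 1.73 in the WT library. The ratio was 0.94 without the barcodes with C1q and S100a8 or S100a9 UMIs, 0.30 when the cells were clustered with the cathepsins included, 0.25 with the stricter filter, 0.54 with thinning and 0.24 without the cell filter. All but the first of these are under the threshold. C1q was higher in this class too, with 8996 CPM in the Het library and 6253 CPM in the WT library.

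In the neutrophil-like class 0 of 8 members were past the threshold, where 0.87% of 4829 genes were higher and 1.82% lower. The ratios ran from -0.25 (Ctsl) to 0.21 (Ctsd), with a median of -0.09 beside -0.11 over all genes judged. Neutrophil-like cells marked by Xist had 1780.5 CPM of Ctsd in the Het library and 2350 CPM in the WT library. Of the 43 such WT cells, 42 lay in the Camp-Fcnb-Ngp cluster, where 92 other WT cells carried both marks. Neutrophil-like cells marked by Y-linked transcripts only in the WT library had 910 CPM of Ctsd. The Camp-Fcnb-Ngp cluster of this class (0.981% of genes higher, 2.18% lower) and its Olfm4-Ltf-Ngp cluster (6.82% higher, 3.08% lower) had 0 members past the threshold. In the Cstdc4-Stfa1-Stfa2l1 cluster 7 of 8 members were lower in the Het library, all but Ctsc, where 4.65% of genes were higher and 16.4% lower. Ctsb there had 156 CPM from 56 UMIs in the Het library and 472 CPM from 263 UMIs in the WT library (-1.60), and Ctsd 794 CPM in the Het library and 1354 CPM in the WT library (-0.77). C1q moved with them, at 1238 CPM in the Het library and 3639 CPM in the WT library, and without the barcodes with C1q and S100a8 or S100a9 UMIs the ratio was 0.021 for Ctsd, 0.075 for Ctsl, -0.36 for Ctss and -0.46 for Ctsb. Without the cell filter 5 members turned to the other direction (Ctsb, Ctsd, Ctsh, Ctss and Ctsz).

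In proliferating-like cells Ctsd was lower in the Het library (-0.75, -0.86 to -0.64), with 728 CPM in the Het library and 1227 CPM in the WT library, and Ctsk was higher, where 4.72% of 5640 genes were higher and 7.15% lower. The ratio of Ctsd there was -1.67 without the barcodes with C1q and S100a8 or S100a9 UMIs and -0.14 with finer clusters (resolution 1.0), and it was under the threshold too with the stricter filter (-0.27), without the cell filter (-0.40), with thinning (-0.46), without shared barcodes (-0.46), clustered with the cathepsins (-0.47) and with equal weight per cell (-0.54). In endothelial-like cells Ctsa (-1.38, from 74 UMIs in the Het library and 80 UMIs in the WT library) and Ctsk (-1.24) were lower, where 16.1% of 2978 genes were higher and 8.9% lower. Without the few barcodes rich in Ctsk that are described further on, the ratio of Ctsa there was -0.15. In NK cell-like cells 0 of 5 members that could be judged were past the threshold (9.67% of genes higher, 7.26% lower), and in choroid plexus-like cells 0 of 5 (15.3% higher, 12.6% lower). In the Elane-Mpo-Ctsg cluster 5 of 5 were lower (Ctsb, Ctsc, Ctsd, Ctss and Ctsz), where 10.4% of 830 genes were higher and 10.5% lower; 50 of its 51 Het cells and all 38 of its WT cells had barcodes listed in both libraries. A single WT barcode there with 72621 UMIs, of which C1q made up 9267 CPM, held Ctsd at 1349 CPM, and the other 37 WT cells had 205 CPM of Ctsd, against 181 CPM in the 49 Het cells without UMIs of both kinds.

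**Figure D4:**
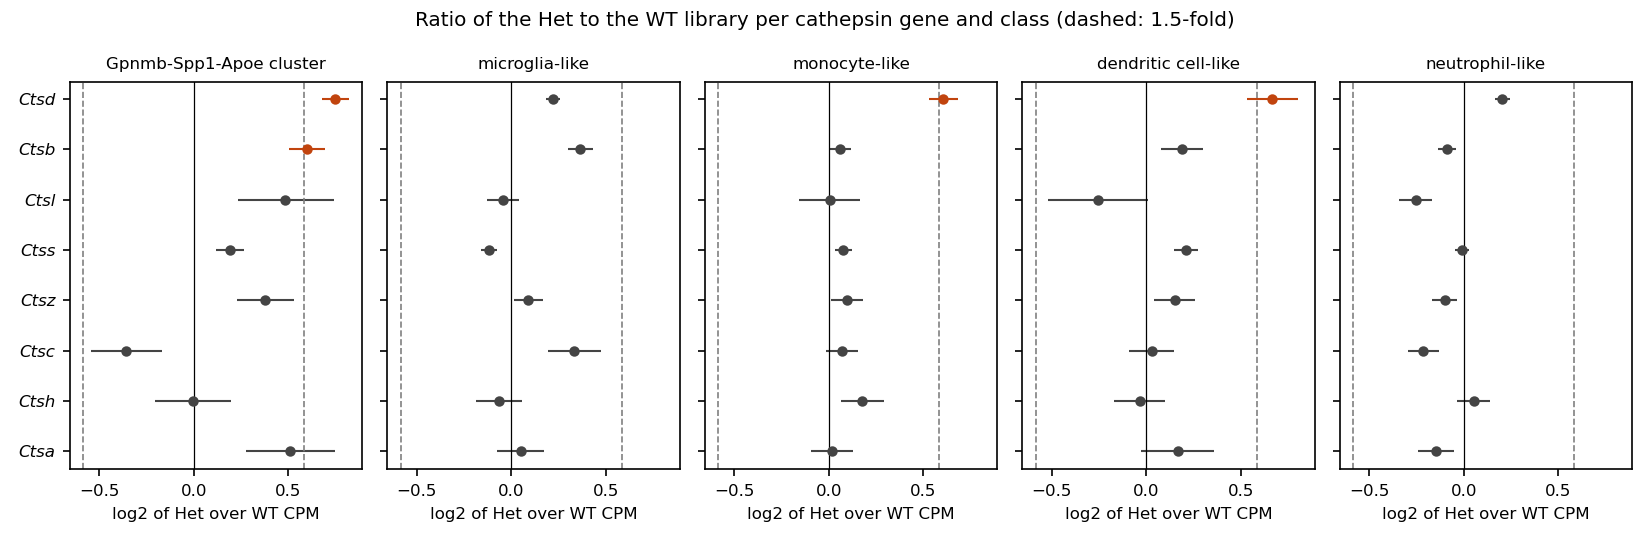
Het over WT ratio of 8 cathepsin genes on the log2 scale in 5 classes, with 95% intervals that cover counting error only; dashed lines mark 1.5-fold. Coloured points are past it in the Het library: Ctsd in 3 classes (0.75, 0.61 and 0.67) and Ctsb in the Gpnmb-Spp1-Apoe cluster (0.60).

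Ctsk, the collagen-degrading cathepsin that osteoclasts use to resorb bone, differed from the other members in that a few barcodes held nearly all of it. Of 2373 Ctsk UMIs in kept Het cells, 2276 (95.9%) lay in 5 barcodes, and of 1394 in kept WT cells, 1330 (95.4%) lay in 2 barcodes. These 7 barcodes had from 81 to 625 Ctsk UMIs in the Het library and at least 330.0 in the WT library, and the next highest cell had 17 in the Het library and 14 in the WT library. They also carried Acp5, the acid phosphatase of osteoclasts, at 8402 CPM in the Het library and 14938 CPM in the WT library, against 48.4 CPM in other Het cells and 54.0 CPM in other WT cells. Atp6v0d2, a proton pump subunit of osteoclasts, had 1027 CPM in these barcodes of the Het library and 1665 CPM in those of the WT library, against 4.65 CPM in other Het cells and 0.657 CPM in other WT cells. Dcstamp and Ocstamp, which osteoclasts need to fuse, were higher in them too, with Dcstamp at 309 CPM in the Het library and 253 CPM in the WT library. These partner genes were chosen after the Ctsk values were seen. Ctsd was lower in these barcodes, with 345 CPM in the Het library and 788 CPM in the WT library, against 2373 CPM in other Het cells and 1571 CPM in other WT cells. Ctss was lower too, with 373 CPM in the Het library and 282 CPM in the WT library, whereas Ctsa was not, with 345 CPM in the Het library and 907 CPM in the WT library, against 332 CPM in other Het cells and 315 CPM in other WT cells.

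Clustering placed 3 of the Het and both WT barcodes of this kind in the endothelial-like class and 2 Het barcodes in the proliferating-like class, although Cldn5, a tight-junction gene of endothelium, had 0 UMIs in all 7. The ratios of Ctsk in those classes (5.95 in proliferating-like and -1.24 in endothelial-like cells) are therefore ratios between a few barcodes. Without them Ctsk had 5.78 CPM over all kept Het cells and 3.01 CPM over all kept WT cells, where with them it had 139 CPM in the Het library and 65.3 CPM in the WT library. Of the 7 barcodes, 5 were also listed in the other library, there with 510.0 to 1535 UMIs and 5 to 14 Ctsk UMIs. In the microglia-like class Ctsk had 3 UMIs in the Het library and 10 UMIs in the WT library, and in the Gpnmb-Spp1-Apoe cluster 1 UMI in the Het library and 0 UMIs in the WT library, for which the upper limit was 11.1 CPM.

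**Figure D5:**
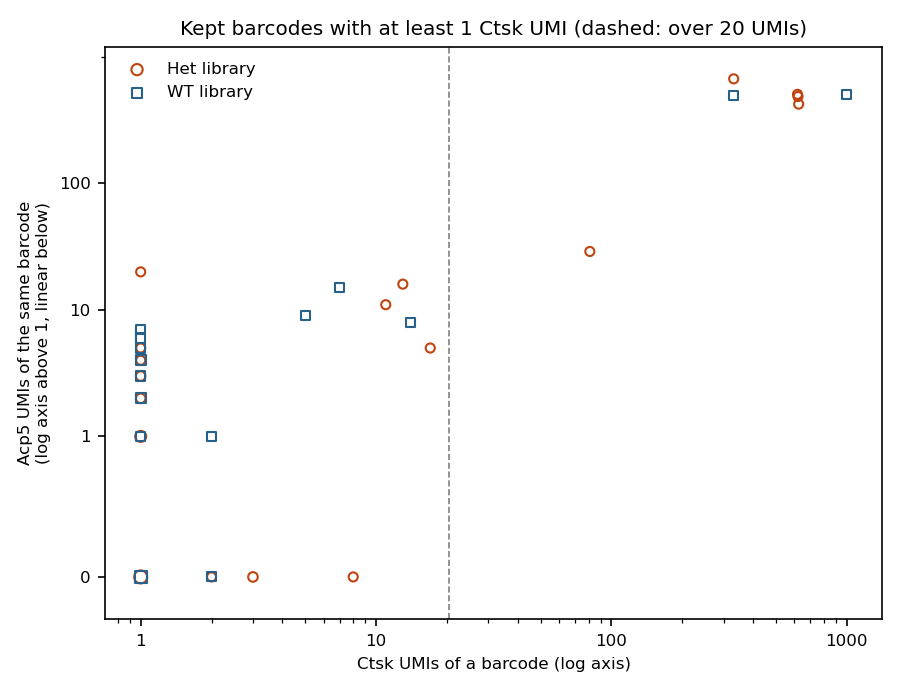
UMIs of Acp5 against UMIs of Ctsk in each kept barcode with at least 1 Ctsk UMI (log axes, the vertical one linear below 1; circles Het, squares WT; larger symbols stand for more barcodes). Right of the dashed line lie 5 Het and 2 WT barcodes, with at least 81 Ctsk UMIs and 29 to 672 Acp5 UMIs.

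Members that share classes also tracked each other. Over 28 points, the clusters of at least 30 cells in each library, Pearson's r of log2(CPM + 10) was 0.94 between Ctsb and Ctsz, 0.92 between Ctsa and Ctsb and 0.91 between Ctsh and Ctsz. It was 0.42 between Ctsc and Ctsd and 0.24 between Ctsc and Ctsl, and from -0.30 to 0.16 between Ctsk and each other member. The points share libraries, depth and some barcodes, so these are descriptions. Among 6426 genes searched, the pattern most like that of Ctsd was Syngr1's (0.96), that of Ctss was Csf1r's (0.96), the receptor that macrophages need to survive, and that of Ctsb was Lamp1's (0.94), a lysosomal membrane protein. Ctsc was most like Amz1 (0.95), Ctsz most like Renbp (0.95), Ctsa most like Pip4p1 (0.93), Ctsl most like Cd81 (0.92) and Ctsk most like Acp5 (0.91). Nearly all Ctsk lay in the few barcodes described above, which were also rich in Acp5, so the values of Ctsk here repeat that observation. Lamp1 and Asah1, the lysosomal acid ceramidase, were among the 3 closest genes of Ctsb and Ctsz.

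Of the genes that work with the cathepsins, 1 was past the threshold in microglia-like cells, where 2.99% of 5710 genes were higher and 1.07% lower. Of the partners and processing genes 12 of 12 could be judged and 0 were past 1.5-fold, with a median of 0.03. Lgmn, the asparaginyl endopeptidase that trims cathepsin precursors, had 2305 CPM in the Het library and 2285 CPM in the WT library. Cd74, the invariant chain that Ctss trims, had 1691 CPM in the Het library and 2165 CPM in the WT library (-0.36). Of the cystatins and stefins 3 of 13 could be judged and 0 were past it. Cst3, the secreted inhibitor cystatin C, had 26259 CPM in microglia-like cells of the Het library and 29290 CPM in those of the WT library (-0.16), and 10653 CPM in the Het library and 10951 CPM in the WT library in the Gpnmb-Spp1-Apoe cluster. Cstb, the intracellular stefin B, had 194 CPM in the Het library and 195 CPM in the WT library in microglia-like cells, against 416 CPM in the Het library and 342 CPM in the WT library in the Gpnmb-Spp1-Apoe cluster.

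Of the sorting genes, which carry enzymes to the lysosome, 5 of 7 could be judged and 0 were past it; Lrp1, an endocytic receptor, had 420.1 CPM in the Het library and 371 CPM in the WT library, and Scarb2, a lysosomal membrane protein that sorts glucocerebrosidase, 196 CPM in the Het library and 172 CPM in the WT library. Of the serpins 1 of 5 could be judged, Serpinb6a, with 33.2 CPM in the Het library and 36.9 CPM in the WT library; Serpinb9 had 13 UMIs in the Het library and 7 UMIs in the WT library. Of the transcription factors of lysosomal genes 6 of 7 could be judged and 1, Tfeb, was higher in the Het library, beside 2.99% of all genes judged. Tfeb had 35.1 CPM from 55 UMIs in the Het library and 16.3 CPM from 33 UMIs in the WT library (1.11, 0.46 to 1.78). Tfeb was not past the threshold in neutrophil-like, monocyte-like or dendritic cell-like cells and had too few UMIs to be judged in the Gpnmb-Spp1-Apoe cluster.

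In the Gpnmb-Spp1-Apoe cluster, where Ctsd and Ctsb were higher in the Het library, 1 of 12 partner genes, Cd74, was past the threshold. Over all 4127 genes judged there, 8.92% were higher and 6.59% lower. Cd74 was lower (-0.98, -1.20 to -0.75), with 383 CPM in the Het library and 753 CPM in the WT library. Lgmn leaned higher without passing (0.32), at 1714 CPM in the Het library and 1375 CPM in the WT library. Serpinb6a was past it (1.20, 0.26 to 2.31), from 97 UMIs in the Het library and 10 UMIs in the WT library. Ctse was past it too (0.69) and Tfe3, a transcription factor related to Tfeb, was lower (-0.61), both from few UMIs and with intervals that hold 0.

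Of 14 other genes named as cathepsins, 3 could be judged in the microglia-like class and 0 were past the threshold. Of all genes judged in that class, 2.99% were higher and 1.07% lower. Ctsw, a cathepsin of cytotoxic lymphocytes, was found at 466 CPM in Het and 547 CPM in WT NK cell-like cells. Ctsg, a serine protease of neutrophil granules and not a relative of papain, had 3815 CPM in Het and 2991 CPM in WT cells of the Elane-Mpo-Ctsg cluster. Ctsf, a cysteine protease of the lysosome, had 160.0 CPM in Het and 180.3 CPM in WT microglia-like cells, against 10.8 CPM in Het and 9.42 CPM in WT monocyte-like cells. Ctso had 48.5 CPM in Het and 50.2 CPM in WT microglia-like cells, and Ctse, an aspartic protease, 34.4 CPM in Het and 26.1 CPM in WT microglia-like cells.

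The genes lie on 6 mouse chromosomes (GENCODE M21, build GRCm38). Ctsd lies on chromosome 7 from 142375911 to 142388038 on the minus strand and Ctsc on the same chromosome from 88278085 to 88310888 on the plus strand. Ctsk (chromosome 3, 95499256 to 95509362) and Ctss (chromosome 3, 95526786 to 95556403) are neighbours on the plus strand, 17423 bases apart, with nearly all of Ctsk in a few barcodes and Ctss high in the Gpnmb-Spp1-Apoe cluster and in microglia-like cells. Ctsb lies on chromosome 14 from 63122462 to 63145923, Ctsl on chromosome 13 from 64359337 to 64370890, Ctsh on chromosome 9 from 90054152 to 90076089, and Ctsa (164832873 to 164841032) and Ctsz (174427493 to 174439039) on chromosome 2. Genes annotated on the other strand overlap Ctsa (Neurl2 and Pltp), Ctsb (Fdft1), Ctsl (Gm47123) and Ctsz (Nelfcd), and whether counting used strand is not given in the sources used here, so reads of these pairs may be shared.

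Promoters of 7 members, 8 windows in all, each from 250 bases before to 50 after an annotated start, were read from RefSeq (GRCm38.p6) and searched on both strands for 3 motifs. CACGTG, the core of the sites bound by TFEB and its relatives, was found in 3 of the 8 windows (Ctsd, Ctsl and the second window of Ctsa), where 7.15% of 32851 windows of that length hold it. GAGGAAGT, a form of the site of PU.1, the myeloid transcription factor, was found in Ctss and Ctsc, where 3.20% of windows hold it. TGANTCA, the AP-1 site, was found in 0 of the 8, where 7.81% hold it. These are matches of letters in a window and no measure of binding. The 4 windows below are shown because Ctsd and Ctsa hold CACGTG, in capitals, 2 times each, Ctss holds GAGGAAGT (in capitals, here on the opposite strand), and Ctsk, the neighbour of Ctss with another pattern, holds none of the 3. The hits begin at -245 and -98 from the start in Ctsd, at -12 and 5 in Ctsa and at -2 in Ctss.
Ctsd, chr7:142387778-142388077, minus strand: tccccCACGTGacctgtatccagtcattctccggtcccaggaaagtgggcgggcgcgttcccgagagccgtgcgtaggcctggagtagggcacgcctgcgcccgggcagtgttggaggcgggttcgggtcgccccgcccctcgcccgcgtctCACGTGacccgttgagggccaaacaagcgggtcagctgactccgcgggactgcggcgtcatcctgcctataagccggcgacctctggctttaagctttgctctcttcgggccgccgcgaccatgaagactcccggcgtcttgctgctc
Ctsa, chr2:164833523-164833822, plus strand: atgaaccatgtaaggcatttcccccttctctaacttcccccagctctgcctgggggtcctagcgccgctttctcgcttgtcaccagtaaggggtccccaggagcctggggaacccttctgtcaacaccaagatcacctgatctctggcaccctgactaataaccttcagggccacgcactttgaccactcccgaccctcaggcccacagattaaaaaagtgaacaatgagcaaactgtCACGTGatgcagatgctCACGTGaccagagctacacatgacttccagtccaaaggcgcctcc
Ctss, chr3:95526536-95526835, plus strand: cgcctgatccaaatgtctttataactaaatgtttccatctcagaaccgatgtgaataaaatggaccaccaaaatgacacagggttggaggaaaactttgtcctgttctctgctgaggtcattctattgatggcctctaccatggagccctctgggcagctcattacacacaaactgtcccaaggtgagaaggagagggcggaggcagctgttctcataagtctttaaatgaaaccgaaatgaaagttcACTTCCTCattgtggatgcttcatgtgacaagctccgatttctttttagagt
Ctsk, chr3:95498960-95499259, plus strand: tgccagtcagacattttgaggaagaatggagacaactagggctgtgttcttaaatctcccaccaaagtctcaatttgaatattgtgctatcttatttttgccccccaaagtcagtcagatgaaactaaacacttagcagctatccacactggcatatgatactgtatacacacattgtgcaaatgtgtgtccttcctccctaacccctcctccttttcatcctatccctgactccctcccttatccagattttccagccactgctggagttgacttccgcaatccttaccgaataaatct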

How the data were processed

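Cells labelled as microglia-like were profiled by 3′ sequencing (10x Genomics kit v3.1), per the labels. The deposited values are raw counts of UMIs per gene and barcode, without normalization. Cell Ranger 4.0 and mm10 are named in the submitters' processing notes, whereas Cell Ranger 5.0.0 is the version per the file headers. A 3′ count is not scaled by gene length.

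Kept cells had at least 500 genes, and mitochondrial UMIs stayed under 10%. Both libraries were clustered together (scanpy 1.11.5, 2000 variable genes, 30 principal components, 15 neighbours, Leiden resolution 0.5, seed 0), leaving out the cathepsins, cystatins, stefins, Xist and Y-linked genes so that the members did not set the clusters. Clusters were named from 20 marker lists: a name needed at least 3 markers 1.5-fold higher in at least 10% of cells and more markers than any other type among the 10 leading genes, with no other list having more markers higher. That scoring was set after the data were seen, and 2 of 20 clusters stayed unnamed. The members and the 6 gene lists (other cathepsin genes, cystatins and stefins, serpins, processing and partner genes, sorting genes, transcription factors) were chosen with earlier results of these data known.

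UMIs were summed per class and library as CPM. Intervals are exact at 95%, computed with scipy 1.17.1, and were checked on simulated counts. All members are named; of each list, up to 3 genes past 1.5-fold in the microglia-like class or the 2 with the most UMIs; and, for each member, up to 3 genes whose levels correlate best with it (that of Ctsh is not reported here). Other genes were named after their values were seen. Genes were matched to GENCODE M21 by identifier (32235 of 32285). Alternatives were other cell filters, barcodes left out, equal weight per cell, thinning to 2000 UMIs, other clusterings, other minimums, cells marked by Xist, and TMM (edgeR 4.0.16) and median-of-ratios scaling. The smallest class compared had at least 50 cells over both libraries.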

Additional observations from a re-analysis of the deposited data

Results flagged for a closer look

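The ratios below, Het over WT on the log2 scale, differed in direction between classes for the same gene. None of these differences was tested, since each genotype has 1 library. Ctsd was higher in the Het library in the Gpnmb-Spp1-Apoe cluster (0.75), dendritic cell-like cells (0.67), monocyte-like cells (0.61) and, within the monocyte-like class, the Vcan-Fn1-Ccr2 cluster (0.60). It was lower in the Het library in proliferating-like cells (-0.75), the Cstdc4-Stfa1-Stfa2l1 cluster of neutrophil-like cells (-0.77) and the Elane-Mpo-Ctsg cluster (-2.20). Ctsb was higher in the Het library in the Gpnmb-Spp1-Apoe cluster (0.60) and lower in the Cstdc4-Stfa1-Stfa2l1 cluster (-1.60) and the Elane-Mpo-Ctsg cluster (-1.83). Ctsk was higher in the Het library in proliferating-like cells (5.95) and lower in endothelial-like cells (-1.24), where 7 barcodes held nearly all of its UMIs.

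C1q had 1238 CPM in Het and 3639 CPM in WT cells of the Cstdc4-Stfa1-Stfa2l1 cluster, and 401 CPM in Het and 5483 CPM in WT cells of the Elane-Mpo-Ctsg cluster. In the Elane-Mpo-Ctsg cluster a single WT barcode with 72621 UMIs had C1q at 9267 CPM. The other 37 WT cells there had 372 CPM of C1q, against 302 CPM in the 49 Het cells without UMIs of both kinds. C1q differed less in proliferating-like cells, with 6052 CPM in the Het library and 6669 CPM in the WT library. It was higher in Het endothelial-like cells (758 CPM) than in WT ones (248 CPM). In the Cstdc4-Stfa1-Stfa2l1 cluster, barcodes with few UMIs of C1q or of S100a8 and S100a9 had 577 CPM of Ctsd in the Het library and 569 CPM in the WT library.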

How the results depend on the processing

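Of 14 alternatives, 13 were listed beforehand, and 1, leaving out barcodes with over 20 Ctsk UMIs, was chosen after seeing the data. Taking each ratio of Het over WT under each alternative, 1278 values stayed within the interval of the reported one, 354 moved beyond it and 17 turned direction where the reported one was past 1.5-fold. The count of members past 1.5-fold moved in 19 combinations and stayed within 1.5 times in 133. In the Gpnmb-Spp1-Apoe cluster the 2 members higher in Het became 0 with equal weight per cell, with thinning to 2000 UMIs and without barcodes with C1q and S100a8 or S100a9 UMIs, and 1 with no cell filter, the stricter filter and without barcodes found in both libraries. In monocyte-like cells the 1 became 0 with TMM, median-of-ratios scaling, equal weight, the stricter filter, thinning, and without shared or C1q barcodes. In dendritic cell-like cells it became 0 with no cell filter or clustering with the cathepsins, and 2 with a minimum of 10 UMIs. This count takes any member. Ctsd itself was also under the threshold in that class with the stricter filter and with thinning. In microglia-like cells 1 became lower at the minimum of 10 UMIs. In neutrophil-like cells 1 became lower among Xist-marked cells and 3 without barcodes with C1q and S100a8 or S100a9 UMIs.

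Without those barcodes the ratio turned for Ctsb in the Gpnmb-Spp1-Apoe (-0.14) and Elane-Mpo-Ctsg (0.36) clusters, for Ctsd in monocyte-like cells (-0.39) and the Vcan-Fn1-Ccr2 (-0.26) and Cstdc4-Stfa1-Stfa2l1 (0.021) clusters, and for Ctsl in the last (0.075). The stricter filter turned Ctsd in monocyte-like cells (-0.18) and the Vcan-Fn1-Ccr2 cluster (-0.45). Equal weight per cell turned Ctsb (0.45) and Ctsd (0.37) in the Elane-Mpo-Ctsg cluster and Ctsk in proliferating-like cells (-0.10). No cell filter turned Ctsa in endothelial-like cells (0.29) and, in the Cstdc4-Stfa1-Stfa2l1 cluster, Ctsb (0.017), Ctsd (0.39), Ctsh (0.013), Ctss (0.17) and Ctsz (0.071). The causes were not tested.

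No paired analysis was possible because each genotype has 1 library. Xist-marked cells gave a value only where each library had at least 20.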

Other observations

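Serpinb1a, an inhibitor of neutrophil serine proteases, was higher in the Het library in neutrophil-like cells (0.71, 0.62 to 0.80). It had 348 CPM in the Het library and 213 CPM in the WT library. Stfa2, a stefin, was higher too (0.62, 0.30 to 0.94), from 175 UMIs in the Het library and 155 UMIs in the WT library. Of the 5 cystatins and stefins judged there, Stfa2 was the 1 past the threshold, and the median was -0.18. Their intervals lay below 0 for 3 and above 0 for 2. Of all genes judged in that class, 0.87% were higher and 1.82% lower. In dendritic cell-like cells Serpinb6b was higher in the Het library (2.10, 1.32 to 2.96), with 39.8 CPM in Het and 9.25 CPM in WT cells. Tpp1, a lysosomal tripeptidyl peptidase, stood at 0.60 (0.17 to 1.02), from 102 UMIs in the Het library and 90 UMIs in the WT library. They were the 1 of 2 serpins and the 1 of 11 partner genes past the threshold there. Of all genes judged in dendritic cell-like cells, 5.09% were higher and 2.79% lower. Border-associated macrophage-like cells, 22 in the Het library and 26 in the WT library, were too few to be ranked among the classes. They had 1333 CPM of Ctsc in the Het library and 1249 CPM in the WT library. These levels were above those of microglia-like cells and of the Gpnmb-Spp1-Apoe cluster in both libraries. Ctsb was above microglia-like cells in both as well, with 3707 CPM in the Het library and 2919 CPM in the WT library. Ctsd, Ctsl, Ctss and Ctsz were lower than in microglia-like cells in both libraries. The order was not resolved for Ctsa in either library. Its intervals overlapped those of microglia-like cells (Het 495 to 683 against 577 to 655 CPM, WT 419 to 570 against 561 to 629 CPM). Ctsh was lower in the WT library. In the Het library its intervals overlapped (600 to 805 against 555 to 632 CPM).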
